A study of Rattus norvegicus with 10 samples.

Results

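The genes described here encode the mitogen-activated protein (MAP) kinase cascade and the dual-specificity phosphatases that switch it off. They were chosen by symbol: every row of the deposited count table named Mapk, Map2k, Map3k, Map4k or Dusp followed only by digits, which gave 62 of 17168 rows. Of these, 5 were MAP4K, 14 MAP3K, 7 MAP2K, 13 MAPK and 23 DUSP genes. In this cascade a MAP4K or a small GTPase activates a MAP3K, which phosphorylates a MAP2K, which in turn phosphorylates a MAP kinase. The MAP kinases fall into the extracellular signal-regulated kinases (ERK), the c-Jun N-terminal kinases (JNK) and the p38 kinases, and DUSP phosphatases remove the activating phosphates. In the hippocampus ERK signalling is known for its part in synaptic plasticity and memory, and JNK and p38 signalling for responses to stress and inflammation.

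RNA came from whole left hippocampi of 10 male TgF344-AD rats, a Fischer 344 line with human Alzheimer's disease transgenes that is used as a model of the disease. Treatment of the 5 ibudilast rats, with an inhibitor of cyclic nucleotide phosphodiesterases, began at 5 months of age and lasted 6 months. The 5 untreated rats carried the same transgenes and ate rodent chow. All rats were perfused and sampled at 11 months, and no rats without the transgenes were analysed here. Only the ibudilast samples were kept in RNAlater-ICE, a tissue transition solution, so treatment and storage cannot be told apart in any comparison. Each rat gave 1 stranded mRNA library.

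Libraries held 14806807 to 17114238 estimated counts in ibudilast rats and 15984438 to 18533520 in untreated rats. Levels are given as CPM, counts relative to the library's total with that total scaled by TMM factors (trimmed mean of M-values). Untreated rat 3 and ibudilast rat 4 stood apart from their groups in several of these genes: the summed excitatory neuron markers were 1538 CPM in ibudilast rat 4, the lowest of its group, and 5118 CPM in untreated rat 3, the lowest of its group. Ibudilast rat 1 and untreated rat 2 had 7222 and 7852 CPM of choroid plexus markers, and the other 8 rats had 27.2 to 358 CPM. Of 15 oligodendrocyte markers 9 rose, with sums of 16622 to 19854 CPM in ibudilast rats and 8138 to 15892 CPM in untreated rats, and 0 fell. Sums of 12 microglia markers, of which 6 fell, were 549 to 661 CPM in ibudilast rats and 659 to 1246 CPM in untreated rats. The 1246 CPM was in untreated rat 3, and the other untreated rats were at 659 to 744 CPM. Sums of 10 endothelial markers, of which 5 fell, were 181 to 353 CPM in ibudilast rats and 359 to 678 CPM in untreated rats. Again the highest was untreated rat 3, and the other untreated rats were at 359 to 474 CPM. Of 12 excitatory neuron markers 3 fell, and of 10 astrocyte markers 4 fell. The highest sum of astrocyte markers, 11233 CPM, was also in untreated rat 3, against 7104 to 8819 CPM in the other untreated rats. Among 10 inhibitory neuron markers 1 rose and 3 fell, and among 8 hippocampal field markers tested 2 fell. In the choroid plexus and blood lists 0 of 7 and 0 of 3 genes tested passed. No marker in the table of any list was at 0 in all rats. In whole tissue, fewer cells of a type and less RNA per cell cannot be told apart.

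The ERK arm changed in both directions. With ibudilast, Map2k1, which encodes MEK1, fell, while Map2k2, the MEK2 gene, rose and the ERK1 gene Mapk3 did not pass the test. The p38 genes Mapk11 and Mapk12 rose, and the JNK genes Mapk9 and Mapk10 fell with Map2k4, their shared upstream kinase. Among the phosphatases the ERK-directed Dusp6 and Dusp7 and the JNK- and p38-directed Dusp8 fell. In all, 59 of the 62 genes had counts enough to test, of which 16 rose (27.1%) and 14 fell (23.7%), by edgeR's quasi-likelihood test with Benjamini-Hochberg adjustment at 0.05 over 12355 genes. Over all genes tested 24.3% rose and 22.8% fell, so the share of MAP kinase genes called was close to the background in each direction. The ibudilast and untreated rats did not overlap in 24 of the 59 genes (40.7%), against 33.4% of all genes tested.

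By tier, 1 of 5 MAP4K, 5 of 14 MAP3K, 3 of 7 MAP2K, 4 of 13 MAPK and 3 of 20 DUSP genes tested rose. In the same order 2, 2, 2, 4 and 4 genes fell. The median log2 fold change, ibudilast over untreated, was 0.13 for MAP4K, −0.07 for MAP3K, 0.01 for MAP2K, −0.10 for MAPK and −0.16 for DUSP genes, against 0.02 for all genes tested. Each tier held genes called in both directions. Among genes called with at least a 2-fold change, Map2k1 fell, and Mapk11, Mapk12 and Mapk15 rose. Without untreated rat 3 and ibudilast rat 4, a choice made after seeing the data, 19 genes rose and 16 fell. Calls over all genes tested grew there as well, to 6601 of 12348, against 5817 of 12355 with all rats. With the oligodendrocyte marker level as a covariate, 20 of the 30 calls were kept, and 9 genes rose and 11 fell. Calls over all genes tested also dropped, to 3733 of 12355 with the covariate, against 5817 without it. The 10 calls lost with the covariate were Map3k1, Map3k6, Map3k11, Map2k5, Mapk10, Mapk12, Mapk15, Dusp7, Dusp12 and Dusp15. With it the log2 fold change was larger in size for Dusp7 (−0.58 against −0.46) and Mapk10 (−0.56 against −0.50). Those of Dusp12 (0.50 against 0.43) and Map2k5 (0.31 against 0.29) were also larger. It was smaller for Map3k1 (−0.64 against −0.73), Map3k6 (0.74 against 0.83) and Map3k11 (0.35 against 0.48). The same held for Mapk12 (0.90 against 1.27), Mapk15 (1.15 against 1.17) and Dusp15 (0.45 against 0.59). The marker level itself did not overlap between the groups, so its part and that of treatment cannot be fully told apart. Errors given with log2 fold changes are standard errors.

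**Figure D1:**
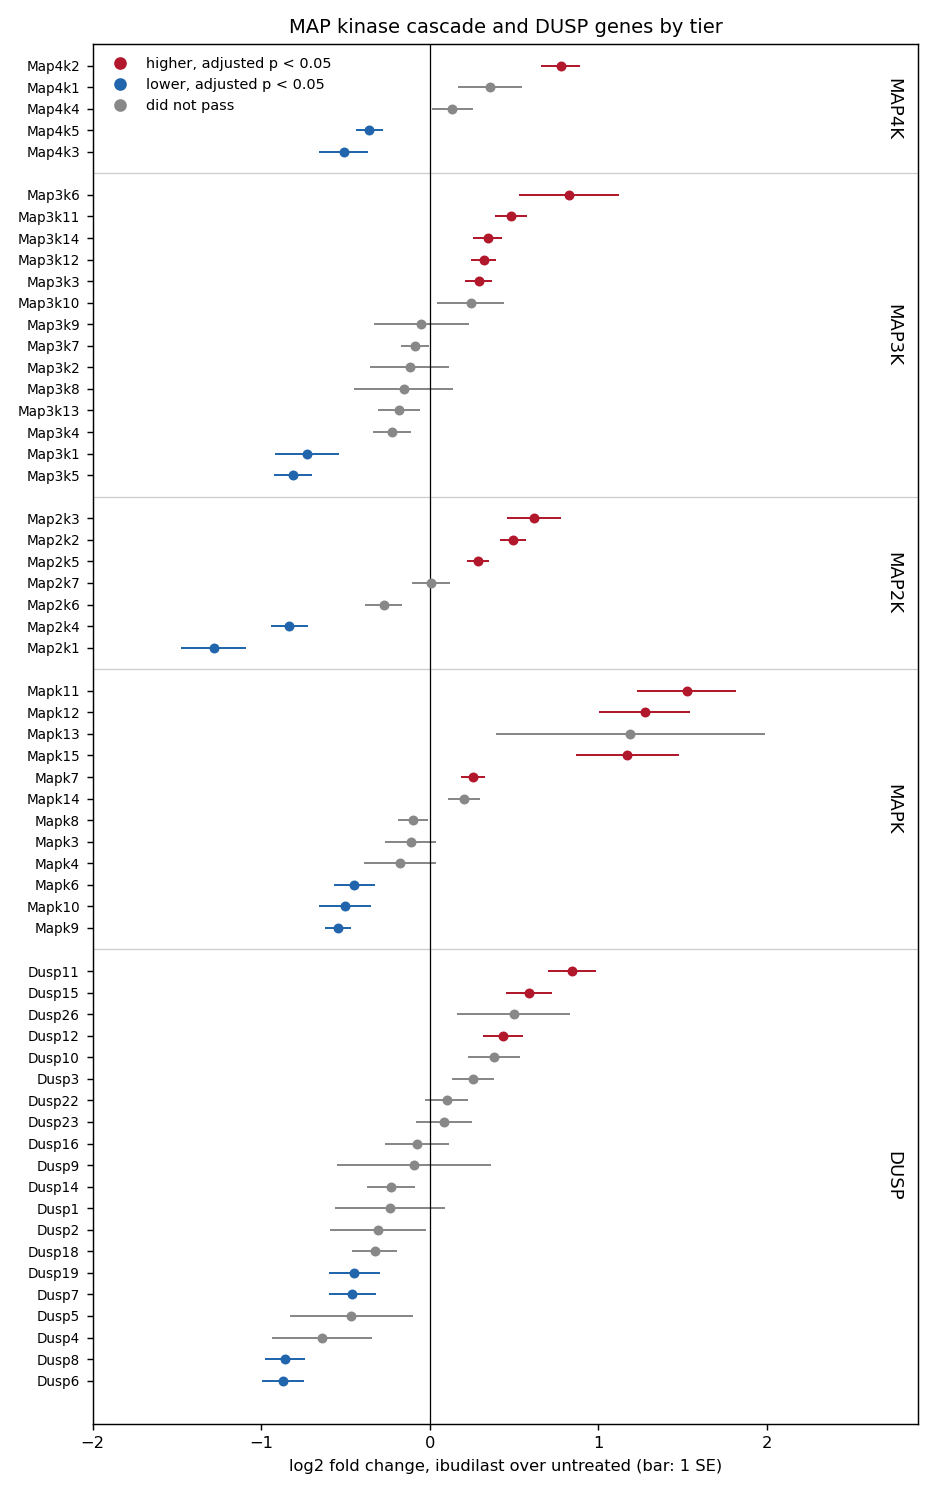
Log2 fold change (x axis, ibudilast over untreated) of 58 tested genes, grouped by tier and ordered by size within a tier. Points are estimates and bars 1 SE (5 rats a group); red marks 16 genes that rose, blue 13 that fell and grey 29 that did not pass, and each tier holds genes on both sides of 0.

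The sequences upstream of 7 genes are shown because they hold, or lack, the cAMP response element (CRE), the site bound by CREB, in genes that the results turn on. Ibudilast inhibits enzymes that break down cyclic nucleotides, and CREB is activated by the cAMP-dependent kinase. RefSeq promoter windows (GRCr8) of 300 bases, 250 before to 50 after the gene start, matched 52 of the 62 genes, and among the others those of Map4k4, Mapk3, Mapk9, Mapk15, Dusp4, Dusp13, Dusp21, Dusp26 and Dusp27 were not used here. Each line gives the 250 bases before the gene start, 5′ to 3′ on the gene's strand, with capitals for the half-site TGACG on either strand. The windows of Dusp1, Dusp11, Map3k13 and Mapk10 hold the full palindrome TGACGTCA, those of Map2k1 and Dusp6 hold no half-site, and that of Map2k2 holds 1.
Dusp1, chr10:17184603-17184852, plus strand: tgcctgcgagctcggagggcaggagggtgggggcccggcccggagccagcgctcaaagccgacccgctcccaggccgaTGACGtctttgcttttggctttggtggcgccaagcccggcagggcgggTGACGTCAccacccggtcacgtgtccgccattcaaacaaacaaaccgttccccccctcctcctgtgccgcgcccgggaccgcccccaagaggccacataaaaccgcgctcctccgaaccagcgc
Dusp11, chr4:119942568-119942817, minus strand: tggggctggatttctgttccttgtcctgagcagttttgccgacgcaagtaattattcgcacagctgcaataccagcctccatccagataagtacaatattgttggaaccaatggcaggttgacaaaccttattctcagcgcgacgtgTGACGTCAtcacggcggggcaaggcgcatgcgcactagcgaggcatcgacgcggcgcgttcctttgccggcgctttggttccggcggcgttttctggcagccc
Map3k13, chr11:92739664-92739913, minus strand: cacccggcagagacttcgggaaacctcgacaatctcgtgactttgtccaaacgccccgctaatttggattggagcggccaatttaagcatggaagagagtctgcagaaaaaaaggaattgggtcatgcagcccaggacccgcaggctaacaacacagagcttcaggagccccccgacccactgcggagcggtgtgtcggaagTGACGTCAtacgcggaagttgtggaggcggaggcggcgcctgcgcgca
Mapk10, chr14:6802044-6802293, plus strand: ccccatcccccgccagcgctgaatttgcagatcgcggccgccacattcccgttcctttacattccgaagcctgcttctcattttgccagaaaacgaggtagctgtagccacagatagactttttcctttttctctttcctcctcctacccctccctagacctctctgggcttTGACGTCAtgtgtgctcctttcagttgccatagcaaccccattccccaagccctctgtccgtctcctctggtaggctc
Map2k1, chr8:73650185-73650434, minus strand: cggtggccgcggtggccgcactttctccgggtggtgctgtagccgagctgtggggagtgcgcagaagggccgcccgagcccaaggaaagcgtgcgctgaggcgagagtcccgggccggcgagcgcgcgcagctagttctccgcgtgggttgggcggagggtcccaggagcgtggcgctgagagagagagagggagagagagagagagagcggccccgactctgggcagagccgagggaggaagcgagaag
Map2k2, chr7:9260799-9261048, minus strand: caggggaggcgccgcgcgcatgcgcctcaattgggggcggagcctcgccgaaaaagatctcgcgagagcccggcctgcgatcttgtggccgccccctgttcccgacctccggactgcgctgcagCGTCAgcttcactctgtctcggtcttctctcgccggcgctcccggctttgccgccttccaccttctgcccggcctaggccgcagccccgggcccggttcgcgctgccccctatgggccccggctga
Dusp6, chr7:35979354-35979603, plus strand: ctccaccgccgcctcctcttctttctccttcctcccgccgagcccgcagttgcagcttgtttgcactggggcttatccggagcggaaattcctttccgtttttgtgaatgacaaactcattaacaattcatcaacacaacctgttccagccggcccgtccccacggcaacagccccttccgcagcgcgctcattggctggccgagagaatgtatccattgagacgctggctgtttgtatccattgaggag

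The full palindrome was in 4 of 52 windows (7.69%), against 3.19% of the 9220 windows of tested genes and 1.91% of all 27457 windows. In Dusp1 it begins 124 bases before the gene start, in Dusp11 103, in Mapk10 78 and in Map3k13 48. Of these 4 genes Dusp11 rose, Mapk10 fell, and Dusp1 and Map3k13 did not pass. The half-site, searched on both strands and contained in the palindrome, was in 20 of 52 windows (38.5%), against 31.4% of the windows of tested genes. It was in 3 of 15 windows of genes that rose, in 6 of 12 of genes that fell and in 11 of 25 of genes that did not pass. Over all tested genes those shares were 32.6%, 33.8% and 29.8%, in the same order. The GC box GGGCGG was in 39 of 52 windows (75.0%), against 61.6% for tested genes. The AP-1 site TGANTCA was in 2 windows (3.85%), against 4.92%. Split by call, the GC box was in 13 of 15 windows of genes that rose, in 6 of 12 of genes that fell and in 20 of 25 of genes that did not pass. Over all tested genes the GC box shares were 59.7%, 66.0% and 60.6%, in the same order. The 52 windows had a median GC content of 66.7%, against 61% for tested genes. Their median number of CpG sites (C followed by G) was 26, against 20. The part of this composition in the motif shares was not tested. A match is a run of letters and was not tested as a bound site.

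At the top of the cascade, the MAP4K genes encode germinal centre kinase-like enzymes that act on JNK through MAP3Ks. Map4k2, encoding germinal centre kinase, had 48.3, 53.1, 47.9, 67.1 and 49.8 CPM in the 5 ibudilast rats, against 30.7, 27.1, 37.5, 30.4 and 29.6 CPM in the 5 untreated rats. All 5 ibudilast rats were above all untreated rats, and ibudilast rat 4 was the highest. Map4k2 rose (log2 fold change of 0.78 ± 0.12, adjusted p = 0.000389). Map4k5 had 44.0, 41.3, 35.3, 41.6 and 43.2 CPM in the 5 ibudilast rats, against 57.2, 56.0, 47.0, 50.2 and 53.2 CPM in the 5 untreated rats. Every ibudilast rat was below every untreated rat, and the gene fell (log2 fold change of −0.36 ± 0.08, adjusted p = 0.00411). For Map4k3 the levels were 82.5, 80.4, 90.7, 60.0 and 96.3 CPM in the 5 ibudilast rats, against 135, 107, 88.0, 123 and 130.1 CPM in the 5 untreated rats. Untreated rat 3 lay among the ibudilast rats, and Map4k3 fell (log2 fold change of −0.51 ± 0.15, adjusted p = 0.0147). Map4k4 had 307 ± 33.6 CPM in ibudilast rats and 280.2 ± 44.7 CPM in untreated rats (SD, n = 5 each), with adjusted p = 0.399. Map4k1, a kinase of blood cells, had 5.01 ± 0.609 CPM in ibudilast rats and 3.91 ± 1.1004 CPM in untreated rats, with adjusted p = 0.151. It passed when untreated rat 3 was left out (log2 fold change 0.52 with adjusted p = 0.0145), which takes the MAP4K genes that rose to 2. Eif3k, which had 65.9 CPM in ibudilast rats and 46.6 CPM in untreated rats on average, lies within 1 kb of Map4k1, and its part in the counts of Map4k1 was not tested.

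Among MAP3K genes, Map3k5 (ASK1) and Map3k6 (ASK2), which respond to oxidative stress, had opposite signs. Map3k5 had 17.6, 21.3, 14.2, 14.5 and 18.3 CPM in the 5 ibudilast rats, against 27.8, 31.1, 32.0, 30.0 and 29.8 CPM in the 5 untreated rats. The groups did not overlap, and Map3k5 fell (log2 fold change of −0.81 ± 0.11, adjusted p = 0.000266). Map3k6, a transcript of low level, had 3.22, 3.10, 2.44, 4.49 and 2.84 CPM in the 5 ibudilast rats, against 0.902, 3.001, 1.75, 1.79 and 1.59 CPM in the 5 untreated rats. Untreated rat 2 lay among the ibudilast rats. It rose (log2 fold change of 0.83 ± 0.30, adjusted p = 0.0396), but the call was lost when any 1 of 8 rats was left out. Only leaving out untreated rat 2 or ibudilast rat 3 kept it, and adjusted p ranged from 0.0556 to 0.0874 without each of the other 8 rats. Map3k1 (MEKK1), which activates JNK, had 6.51, 5.83, 5.09, 10.04 and 5.90 CPM in the 5 ibudilast rats, against 9.74, 10.4, 14.0, 11.3 and 9.83 CPM in the 5 untreated rats. Ibudilast rat 4, at 10.0 CPM, lay among the untreated rats, and the other 4 were below all of them. Map3k1 fell (log2 fold change of −0.73 ± 0.19, adjusted p = 0.00943).

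Map3k11 (MLK3) had 50.8, 59.6, 53.8, 68.9 and 52.4 CPM in the 5 ibudilast rats, against 36.1, 43.6, 40.2, 42.1 and 42.5 CPM in the 5 untreated rats. The ibudilast rats were all higher, and Map3k11 rose (log2 fold change of 0.48 ± 0.09, adjusted p = 0.00183). Map3k12, encoding the dual leucine zipper kinase of the neuronal injury response, had 162, 177, 183, 149 and 179 CPM in the 5 ibudilast rats, against 141, 129, 148, 128 and 135 CPM in the 5 untreated rats. Its groups were separated by 149 CPM in ibudilast rat 4 and 148 CPM in untreated rat 3, and it rose (log2 fold change of 0.32 ± 0.08, adjusted p = 0.00537). Map3k14, the NF-kB-inducing kinase, had 18.6, 17.9, 21.3, 18.7 and 19.4 CPM in the 5 ibudilast rats, against 15.7, 17.004, 14.9, 14.5 and 13.4 CPM in the 5 untreated rats. These groups did not overlap either, and Map3k14 rose (log2 fold change of 0.34 ± 0.09, adjusted p = 0.00725). Map3k3 (MEKK3), a kinase upstream of ERK5, had 47.5 ± 1.98 CPM in ibudilast rats and 38.8 ± 4.29 CPM in untreated rats and rose (log2 fold change of 0.29 ± 0.08, adjusted p = 0.0122). The mixed-lineage kinase genes Map3k9 and Map3k10 did not pass (log2 fold changes −0.05 and 0.24). Map3k10 was at 280.3 CPM in ibudilast rat 4, far below the other ibudilast rats, and at 557 CPM in untreated rat 3, far above the other untreated rats. Without these 2 libraries its log2 fold change was 0.55 with adjusted p = 9.56e-05, against 0.24 with adjusted p = 0.340 for all rats. These libraries were left out after their values were seen, and both values lay against a rise. The p without them is therefore no independent support for a rise. Map3k2, Map3k4, Map3k7, Map3k8 and Map3k13 did not pass, with log2 fold changes of −0.12, −0.22, −0.09, −0.16 and −0.18. Of these, Map3k4 passed without untreated rat 3 (−0.31 with adjusted p = 0.0287). Map3k12 overlaps Pcbp2, which fell (log2 fold change −0.19), and since the use of strand in counting was not given in the sources used here, reads of overlapping genes cannot be told apart.

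MEK1 and MEK2, the MAP2Ks that phosphorylate ERK, changed in opposite directions. Map2k1 (MEK1) had 143, 173, 193, 95.3 and 175 CPM in the 5 ibudilast rats, against 416, 412, 269, 383 and 414 CPM in the 5 untreated rats. Untreated rat 3 was well below the other 4 untreated rats and still above every ibudilast rat. Map2k1 fell (log2 fold change of −1.28 ± 0.19, adjusted p = 0.000408). Map2k2 (MEK2) had 132, 139, 139, 150.3 and 145 CPM in the 5 ibudilast rats, against 94.8, 92.6, 119, 94.2 and 100.2 CPM in the 5 untreated rats. All ibudilast rats were higher than all untreated rats, of which rat 3 was the highest. Map2k2 rose (log2 fold change of 0.49 ± 0.08, adjusted p = 0.000589).

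Downstream of MEK1 and MEK2, Mapk3 (ERK1) had 242, 233, 263, 197 and 267 CPM in the 5 ibudilast rats, against 256, 225, 369, 220.4 and 229 CPM in the 5 untreated rats. The groups overlapped, with untreated rat 3 above every other rat, and Mapk3 did not pass (log2 fold change of −0.11 ± 0.15, adjusted p = 0.570). Without untreated rat 3 the log2 fold change of Mapk3 was 0.02 with adjusted p = 0.863. Calls of Map2k1 and Map2k2 were kept in all 22 other settings tried.

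**Figure D2:**
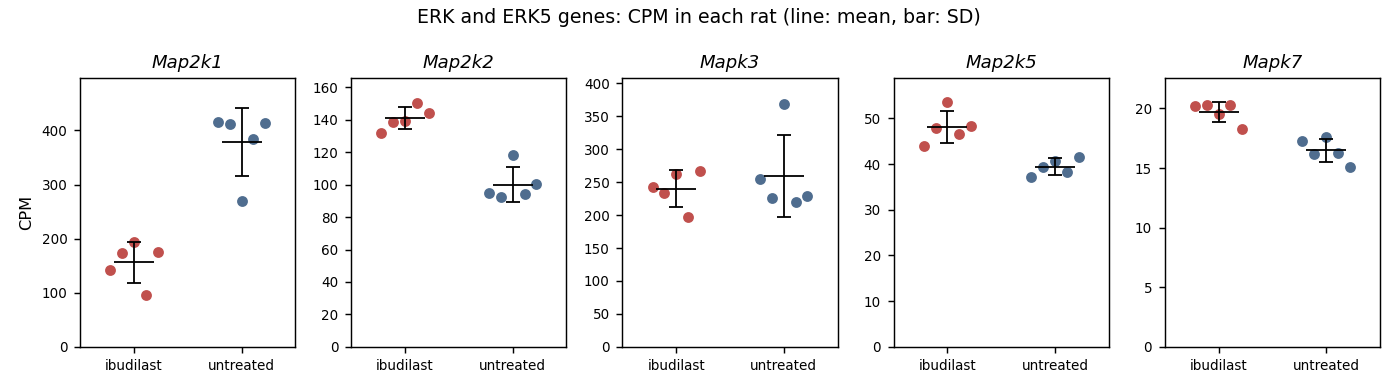
CPM (y axis, from 0) of genes of the ERK and ERK5 routes in each rat, ibudilast left (red) and untreated right (blue), with a panel for each gene. Points are rats, lines means and bars SD (n = 5 each); Map2k1 lies lower in all ibudilast rats, Map2k2, Map2k5 and Mapk7 lie higher, and Mapk3 overlaps.

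The ratio of MEK2 to MEK1 transcripts was compared within each library, since such a ratio does not depend on scaling between libraries. The log2 ratio of Map2k2 to Map2k1 counts was −0.11, −0.32, −0.47, 0.66 and −0.28 in the 5 ibudilast rats, against −2.13, −2.153, −1.18, −2.02 and −2.05 in the 5 untreated rats. Every ibudilast rat was above every untreated rat, and untreated rat 3 was the nearest to the ibudilast rats. The mean difference, ibudilast minus untreated, was 1.80 on the log2 scale, a 3.49-fold higher ratio (two-sided exact permutation test over all assignments of the 10 rats, adjusted p = 0.0119 over 9 ratios). The unadjusted exact permutation p, 0.00794, is the smallest this design can give. Map2k1 and Map2k2 were each separated between the groups, in opposite directions, so the separation of their ratio followed from those values. Its p is therefore no further support for either change. Because counts were not divided by transcript length, the sign of a single ratio does not say which of the pair is more abundant.

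ERK5 has its own MAP2K. Map2k5 (MEK5) had 43.9, 47.9, 53.6, 46.7 and 48.4 CPM in the 5 ibudilast rats, against 37.1, 39.4, 40.8, 38.3 and 41.5 CPM in the 5 untreated rats. All 5 ibudilast rats were higher, and Map2k5 rose (log2 fold change of 0.29 ± 0.07, adjusted p = 0.00507). Mapk7 (ERK5) had 20.2, 20.3, 19.5, 20.3 and 18.3 CPM in the 5 ibudilast rats, against 17.3, 16.2, 17.6, 16.3 and 15.1 CPM in the 5 untreated rats. The ibudilast rats were again all higher, by a small margin, and Mapk7 rose (log2 fold change of 0.26 ± 0.07, adjusted p = 0.0113). Map3k3, Map2k5 and Mapk7, one kinase of each level of the ERK5 route, all rose, with log2 fold changes of 0.29, 0.29 and 0.26. Over all genes tested the median absolute log2 fold change was 0.36, and 24.3% rose. Map2k5 did not pass with the oligodendrocyte marker level as a covariate (0.31 with adjusted p = 0.0531). Map3k3 did not pass with rat number as a block (0.30 with adjusted p = 0.0522). Map3k2 (MEKK2), the other MAP3K known for ERK5, did not pass.

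In the JNK arm, Map2k4 (MKK4), which phosphorylates JNK and p38 kinases, had 20.8, 22.02, 24.7, 21.3 and 23.0 CPM in the 5 ibudilast rats, against 45.9, 38.2, 30.0, 40.6 and 44.4 CPM in the 5 untreated rats. The groups did not overlap and untreated rat 3 was the lowest of its group. Map2k4 fell (log2 fold change of −0.83 ± 0.11, adjusted p = 0.000221). Map2k7 (MKK7), which acts on JNK alone, had 29.9 ± 4.25 CPM in ibudilast rats and 29.7 ± 3.26 CPM in untreated rats (SD, n = 5 each) and did not pass (log2 fold change 0.01, adjusted p = 0.960). The log2 ratio of Map2k7 to Map2k4 was 0.71, 0.64, 0.20, 0.41 and 0.08 in the 5 ibudilast rats, against −0.62, −0.46, −0.23, −0.26 and −0.50 in the 5 untreated rats. It was positive in all ibudilast rats and negative in all untreated rats, with a mean difference of 0.82 (exact permutation, adjusted p = 0.0119).

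Of the 3 JNK genes, Mapk9 and Mapk10 fell and Mapk8 did not pass. Mapk9 (JNK2) had 109, 140.3, 132, 128 and 129.9 CPM in the 5 ibudilast rats, against 196, 172, 195, 187 and 182 CPM in the 5 untreated rats. No rats overlapped, and Mapk9 fell (log2 fold change of −0.54 ± 0.08, adjusted p = 0.000311). Mapk10 (JNK3), the JNK found mainly in neurons, had 138, 189, 195, 112 and 186 CPM in the 5 ibudilast rats, against 258, 206, 206, 243 and 245 CPM in the 5 untreated rats. Its highest ibudilast rat was below its lowest untreated rat, and ibudilast rat 4 was the lowest. Mapk10 fell (log2 fold change of −0.50 ± 0.15, adjusted p = 0.0210), but adjusted p was 0.0510 without untreated rat 1 and 0.05003 without ibudilast rat 1. The summed excitatory neuron markers were 1538 to 6112 CPM in ibudilast rats and 5118 to 7910.0 CPM in untreated rats, and their part in this result was not tested. Mapk8 (JNK1) had 77.3, 89.1, 82.8, 81.8 and 89.7 CPM in the 5 ibudilast rats, against 91.7, 72.0, 97.9, 97.9 and 90.7 CPM in the 5 untreated rats. Here the groups overlapped, with untreated rat 2 the lowest of all, and Mapk8 did not pass (log2 fold change of −0.10 ± 0.09, adjusted p = 0.400). Without untreated rat 2 Mapk8 passed as lower (−0.19 with adjusted p = 0.0358). The log2 ratio of Mapk9 to Mapk8 was 0.49, 0.65, 0.68, 0.65 and 0.53 in the 5 ibudilast rats, against 1.098, 1.25, 1.00, 0.93 and 1.002 in the 5 untreated rats. All ibudilast rats were below all untreated rats, by a mean of −0.46 (exact permutation, adjusted p = 0.0119). The Mapk10 to Mapk8 ratio differed by −0.44 with overlapping groups (exact permutation, adjusted p = 0.0306), and adjusted p was 0.0536 without any 1 of untreated rats 1, 2, 4 and 5 (exact permutation; log2 differences of −0.45 to −0.40).

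The p38 arm differed between its genes. Mapk14 encodes p38 alpha, Mapk11 p38 beta, Mapk12 p38 gamma and Mapk13 p38 delta. Mapk11 had 20.8, 36.4, 30.1, 29.5 and 29.3 CPM in the 5 ibudilast rats, against 8.36, 6.63, 19.9, 8.46 and 7.501 CPM in the 5 untreated rats. Ibudilast rats were all higher, and the margin was set by untreated rat 3, at 19.9 CPM, while the other untreated rats were at 6.63 to 8.46 CPM. Mapk11 rose (log2 fold change of 1.52 ± 0.29, adjusted p = 0.00186). Mapk12 had 15.1, 14.6, 13.3, 32.7 and 12.3 CPM in the 5 ibudilast rats, against 5.41, 6.63, 7.55, 8.52 and 8.24 CPM in the 5 untreated rats. The groups did not overlap, and ibudilast rat 4 was above all others. Mapk12 rose (log2 fold change of 1.27 ± 0.27, adjusted p = 0.00322), and without ibudilast rat 4 the log2 fold change was 0.91 with adjusted p = 0.000808. Mapk14 had 95.7, 96.2, 113, 92.6 and 111 CPM in the 5 ibudilast rats, against 92.6, 102, 74.5, 82.5 and 89.2 CPM in the 5 untreated rats. The groups overlapped and Mapk14 did not pass (log2 fold change of 0.21 ± 0.09, adjusted p = 0.0971), but it did without untreated rat 2 (0.24 with adjusted p = 0.0467). In the GRCr8 annotation Mapk11 and Mapk12 lie next to each other on chromosome 7, with 0 genes between them, and Mapk13 and Mapk14 lie on chromosome 20 with 1 between.

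Mapk13 had 5.64, 1.96, 1.26, 1.42 and 1.74 CPM in the 5 ibudilast rats, against 0.180, 3.53, 0.937, 0.128 and 0.398 CPM in the 5 untreated rats. Its 2 highest values, in ibudilast rat 1 and untreated rat 2, came from the 2 libraries with the most choroid plexus markers, where Ttr was at 6666 and 7121 CPM. Mapk13 did not pass (log2 fold change of 1.19 ± 0.80, adjusted p = 0.246). Without untreated rat 2 it passed as higher (2.51 with adjusted p = 0.0131). The part of choroid plexus tissue in these values was not tested.

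The log2 ratio of Mapk11 to Mapk14 was −2.20, −1.40, −1.90, −1.65 and −1.91 in the 5 ibudilast rats, against −3.47, −3.93, −1.90, −3.28 and −3.57 in the 5 untreated rats. Untreated rat 3 overlapped the ibudilast rats, and the mean difference was 1.42 (exact permutation, adjusted p = 0.0357). For Mapk12 to Mapk14 the log2 ratio was −2.66, −2.72, −3.08, −1.502 and −3.16 in the 5 ibudilast rats, against −4.09, −3.93, −3.30, −3.27 and −3.43 in the 5 untreated rats. All ibudilast rats were above all untreated rats, by a mean of 0.98 (exact permutation, adjusted p = 0.0119). Map2k3 (MKK3), which activates p38 kinases, had 13.9, 12.98, 15.6, 19.4 and 16.4 CPM in the 5 ibudilast rats, against 8.72, 12.3, 12.2, 7.496 and 10.1 CPM in the 5 untreated rats. The ibudilast rats were all higher, by the smallest margin between 12.98 CPM in ibudilast rat 2 and 12.3 CPM in untreated rat 2. Map2k3 rose (log2 fold change of 0.62 ± 0.16, adjusted p = 0.00910). Map2k6 (MKK6), also specific for p38, had 17.3 ± 2.63 CPM in ibudilast rats and 21.0 ± 1.59 CPM in untreated rats and did not pass (log2 fold change −0.27, adjusted p = 0.0639). It passed as lower without untreated rat 3 (−0.34 with adjusted p = 0.0300) and without ibudilast rat 5 (−0.34 with adjusted p = 0.0329). The Map2k6 to Map2k3 log2 ratio was lower in all ibudilast rats than in any untreated rat, by a mean of −0.92 (exact permutation, adjusted p = 0.0119).

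**Figure D3:**
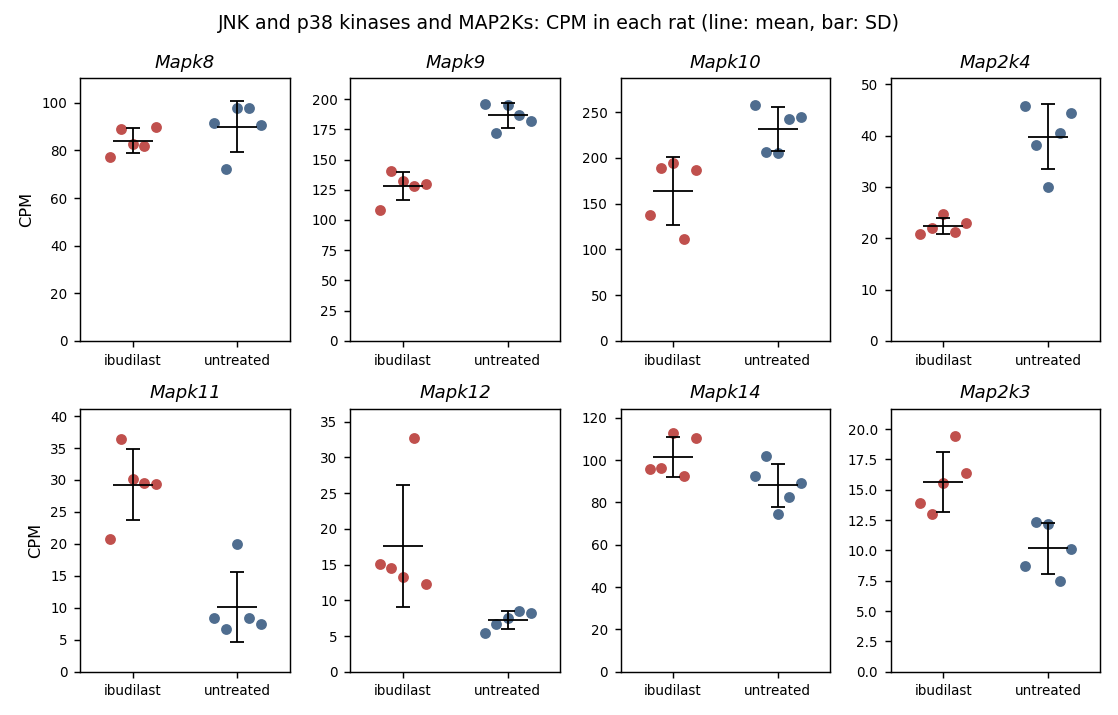
CPM (y axis, from 0) of JNK and p38 kinase genes and of Map2k4 and Map2k3 in each rat, ibudilast left (red) and untreated right (blue). Points are rats, lines means and bars SD (n = 5 each); Mapk9, Mapk10 and Map2k4 are lower in all ibudilast rats, Mapk11, Mapk12 and Map2k3 are higher, and Mapk8 and Mapk14 overlap.

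**Figure D4:**
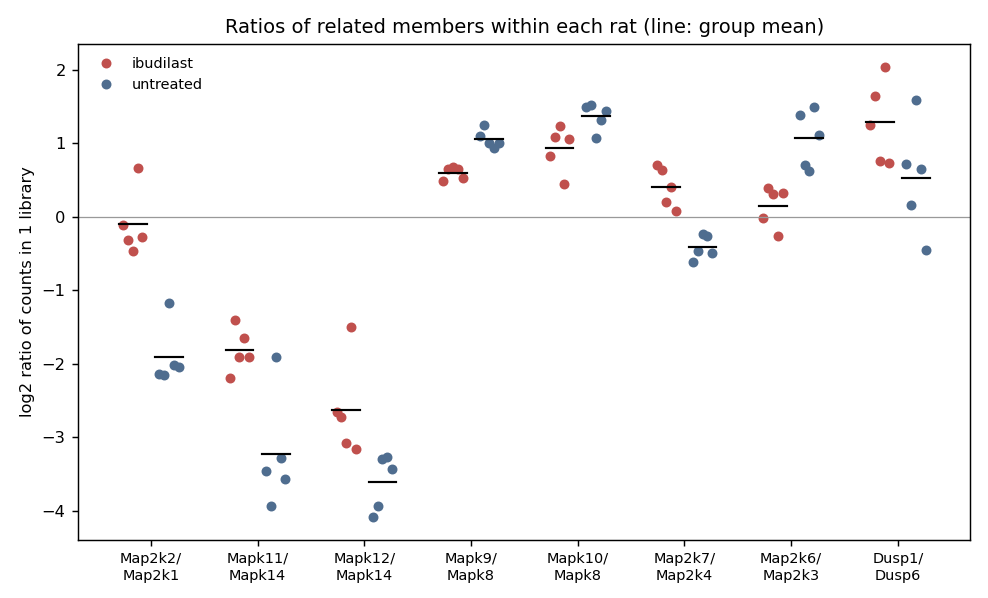
Log2 ratio of the counts of 2 genes within each library (y axis) for 8 pairs, ibudilast left (red) and untreated right (blue) for each pair. Points are rats and lines group means (n = 5 each); 5 pairs did not overlap, and of the 8 only Dusp1 to Dusp6 had an adjusted p above 0.05 (exact permutation, adjusted p = 0.0952).

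The atypical MAP kinases lie outside the classical cascade. Mapk15 (ERK8), which is linked to autophagy and cilia, had 12.03, 7.14, 5.30, 8.51 and 4.92 CPM in the 5 ibudilast rats, against 1.86, 3.84, 4.12, 4.48 and 2.5005 CPM in the 5 untreated rats. Its lowest ibudilast rat, at 4.92 CPM, was just above its highest untreated rat, at 4.48 CPM. Mapk15 rose (log2 fold change of 1.17 ± 0.31, adjusted p = 0.00946), and it overlaps Ccdc166, which did not pass (log2 fold change 0.78). Mapk6 (ERK3) had 58.7, 57.4, 46.4, 72.8 and 45.1 CPM in the 5 ibudilast rats, against 74.4, 79.0, 72.4, 82.9 and 73.8 CPM in the 5 untreated rats. Ibudilast rat 4 lay among the untreated rats, and the other 4 ibudilast rats were below them. Mapk6 fell (log2 fold change of −0.45 ± 0.12, adjusted p = 0.0122), and did not pass with library totals alone (−0.37 with adjusted p = 0.0641). Mapk4 (ERK4) had 77.2 ± 17.1 CPM in ibudilast rats and 87.2 ± 29.7 CPM in untreated rats and did not pass (log2 fold change −0.18, adjusted p = 0.532).

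Of the 10 MAP kinase phosphatases with a kinase-binding domain, 3 fell (30%) and 7 did not pass. Over all genes tested 22.8% fell, so the share of these phosphatases that fell was near the background. The 3 that fell were 2 of the 3 cytoplasmic ERK phosphatases and 1 of the 3 phosphatases of JNK and p38, and the 4 nuclear inducible ones (Dusp1, Dusp2, Dusp4 and Dusp5) did not pass. Dusp6 (MKP-3), a cytoplasmic phosphatase specific for ERK that is itself induced by ERK signalling, had 20.6, 21.5, 21.3, 17.2 and 28.8 CPM in the 5 ibudilast rats, against 40.6, 37.9, 36.8, 45.1 and 39.7 CPM in the 5 untreated rats. Ibudilast rats were all lower, and ibudilast rat 5 was the highest of them. Dusp6 fell (log2 fold change of −0.87 ± 0.12, adjusted p = 0.000296). Dusp7 (MKP-X), a relative of Dusp6, had 67.2, 94.5, 87.9, 54.8 and 77.7 CPM in the 5 ibudilast rats, against 104, 113, 89.3, 103 and 115 CPM in the 5 untreated rats. Ibudilast rat 2 was above untreated rat 3, so the groups overlapped, and Dusp7 fell (log2 fold change of −0.46 ± 0.14, adjusted p = 0.0200). Dusp7 overlaps the ribosomal protein gene Rpl29, which rose (log2 fold change 0.46). Dusp9, the remaining cytoplasmic ERK phosphatase, had 4.496 ± 2.30 CPM in ibudilast rats and 4.78 ± 1.75 CPM in untreated rats and did not pass (adjusted p = 0.888).

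Dusp8, a phosphatase of JNK and p38, had 57.7, 70.6, 54.0, 48.8 and 60.9 CPM in the 5 ibudilast rats, against 118, 89.2, 122, 101 and 99.3 CPM in the 5 untreated rats. No rats overlapped, and Dusp8 fell (log2 fold change of −0.86 ± 0.12, adjusted p = 0.000228). The related Dusp10 and Dusp16 did not pass, with log2 fold changes of 0.38 and −0.07 and adjusted p = 0.0633 and 0.779. Dusp10 passed as higher without ibudilast rat 3 (0.44 with adjusted p = 0.0445) and without ibudilast rat 5 (0.46 with adjusted p = 0.0365).

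Dusp1 (MKP-1), an immediate early gene of stress and growth factor responses, had 48.8, 67.3, 36.1, 71.2 and 47.9 CPM in the 5 ibudilast rats, against 67.0, 42.5, 111, 70.7 and 28.9 CPM in the 5 untreated rats. The groups overlapped broadly and untreated rats held both the lowest and the highest value. Dusp1 did not pass (log2 fold change of −0.24 ± 0.33, adjusted p = 0.583), and without untreated rat 3 the log2 fold change was 0.03 with adjusted p = 0.938. Its ratio to Dusp6 was higher by a mean of 0.75 on the log2 scale, with overlapping groups (exact permutation, adjusted p = 0.0952), and by 1.02 without untreated rat 3 (exact permutation, adjusted p = 0.0317). Dusp2 had 1.91 ± 0.650 CPM in ibudilast rats and 2.35 ± 0.591 CPM in untreated rats (adjusted p = 0.407) and Dusp5 11.1 ± 3.96 CPM in ibudilast rats and 15.4 ± 6.02 CPM in untreated rats (adjusted p = 0.321). Dusp4 (MKP-2) had 7.77, 7.26, 6.76, 2.95 and 5.50 CPM in the 5 ibudilast rats, against 11.7, 12.2, 4.81, 8.20 and 10.2 CPM in the 5 untreated rats. Ibudilast rat 4 and untreated rat 3 were the lowest of their groups. Dusp4 did not pass (log2 fold change of −0.64 ± 0.30, adjusted p = 0.100), and it passed as lower without untreated rat 3 (−0.83 with adjusted p = 0.0217).

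The 13 atypical DUSP genes lack the kinase-binding domain, and 10 of them had counts enough to test. Dusp11, an RNA triphosphatase of the nucleus, had 11.98, 8.93, 8.79, 9.15 and 7.004 CPM in the 5 ibudilast rats, against 4.75, 5.58, 4.99, 4.93 and 5.23 CPM in the 5 untreated rats. All ibudilast rats were higher, and ibudilast rat 1 was the highest. Dusp11 rose (log2 fold change of 0.85 ± 0.14, adjusted p = 0.000837). Dusp15, a myristoylated phosphatase expressed in oligodendrocytes, had 50.2, 64.2, 49.4, 73.7 and 53.3 CPM in the 5 ibudilast rats, against 35.2, 30.9, 44.0, 42.2 and 41.2 CPM in the 5 untreated rats. The groups did not overlap and Dusp15 rose (log2 fold change of 0.59 ± 0.14, adjusted p = 0.00492). Sums of the oligodendrocyte markers were 16622 to 19854 CPM in ibudilast rats and 8138 to 15892 CPM in untreated rats, and with their level as a covariate the log2 fold change of Dusp15 was 0.45 with adjusted p = 0.143. Dusp15 overlaps Ttll9, which rose (log2 fold change 1.66).

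Dusp12 had 8.75, 8.81, 8.23, 9.86 and 7.18 CPM in the 5 ibudilast rats, against 6.85, 5.90, 6.99, 5.57 and 6.42 CPM in the 5 untreated rats. The margin between the groups was small, and Dusp12 rose (log2 fold change of 0.43 ± 0.12, adjusted p = 0.0122), with adjusted p = 0.0502 without untreated rat 4. Dusp19, which acts on the JNK pathway, had 12.1, 11.3, 7.95, 7.74 and 10.48 CPM in the 5 ibudilast rats, against 12.98, 12.4, 11.49, 15.1 and 15.6 CPM in the 5 untreated rats. Ibudilast rat 1 was above untreated rat 3. Dusp19 fell (log2 fold change of −0.45 ± 0.15, adjusted p = 0.0309), and did not pass without untreated rat 4 or 5 or ibudilast rat 3 or 4 (adjusted p = 0.0511 to 0.0758). It overlaps Nup35, which fell (log2 fold change −0.46).

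Dusp3, Dusp14, Dusp18, Dusp22, Dusp23 and Dusp26 did not pass, with log2 fold changes of 0.26, −0.23, −0.33, 0.10, 0.08 and 0.50. Dusp26, a phosphatase of brain and neuroendocrine tissue, passed as higher without untreated rat 3 (0.90 with adjusted p = 0.00632). Dusp3 passed as higher without ibudilast rat 4 (0.32 with adjusted p = 0.0186). Dusp18 passed as lower without ibudilast rat 1 (−0.42 with adjusted p = 0.0268) and without ibudilast rat 4 (−0.24 with adjusted p = 0.0451), and it overlaps Slc35e4, which rose (log2 fold change 0.33). The 3 genes with too few counts to test were Dusp13, Dusp27 and Dusp21. Dusp13 had 0.583 ± 0.134 CPM in ibudilast rats and 0.290 ± 0.170 CPM in untreated rats, and Dusp27 had 0.165 ± 0.305 CPM in ibudilast rats and 0.0464 ± 0.0457 CPM in untreated rats (SD, n = 5 each). Dusp21 had 0 counts in all 10 libraries, which allows up to 3 counts a library, or 0.158 to 0.209 CPM, by counting error alone.

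**Figure D5:**
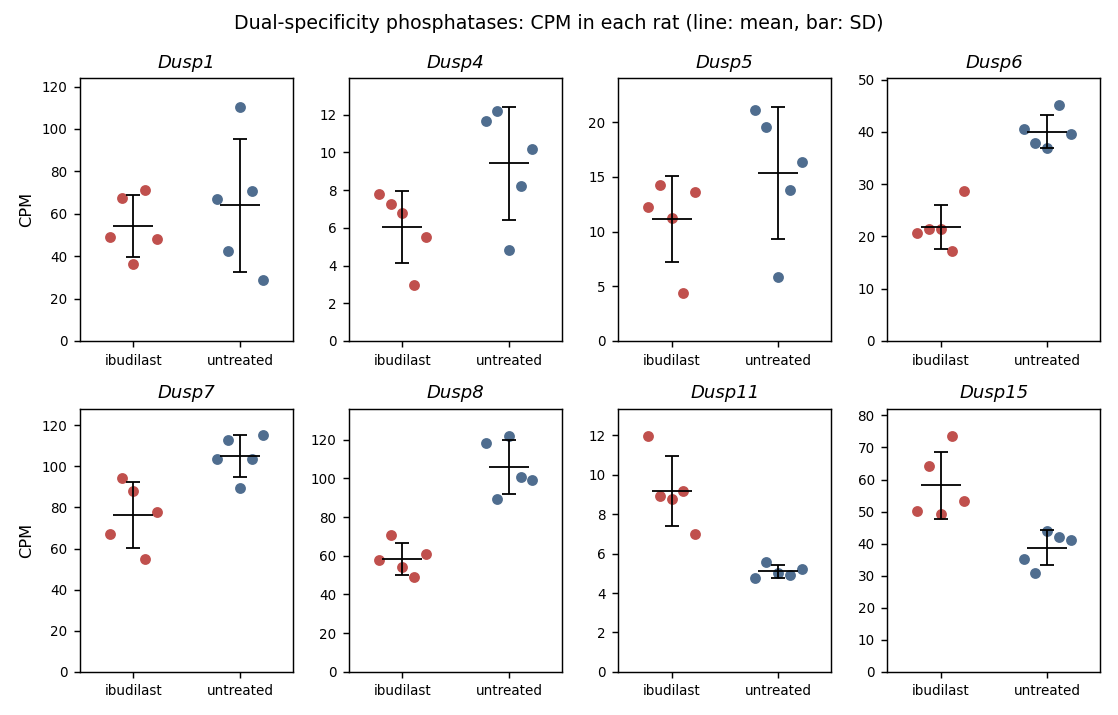
CPM (y axis, from 0) of 8 dual-specificity phosphatase genes in each rat, ibudilast left (red) and untreated right (blue), with a panel for each gene. Points are rats, lines means and bars SD (n = 5 each); Dusp6 and Dusp8 are lower and Dusp11 and Dusp15 higher in all ibudilast rats, Dusp7 is lower with a small overlap, and Dusp1, Dusp4 and Dusp5 overlap.

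Genes that feed the cascade were counted from lists of other symbols, to be read against the 24.3% of all genes tested that rose and the 22.8% that fell. Counts with the oligodendrocyte covariate are to be read against the 3733 of all genes tested that were called there, and 5817 without it. Of 25 genes of Ras proteins and their activators, 3 rose (12%), 13 fell (52%) and 9 did not pass, with a median log2 fold change of −0.34 against 0.02 for all genes tested. Rap1b, a Ras-like GTPase, had 14.4 ± 1.79 CPM in ibudilast rats and 27.6 ± 1.89 CPM in untreated rats, and Nras had 12.04 ± 1.84 CPM in ibudilast rats and 20.6 ± 1.52 CPM in untreated rats (SD, n = 5 each). Rap1b fell (log2 fold change of −0.94 ± 0.10, adjusted p = 5.12e-05), as did Nras (log2 fold change of −0.77 ± 0.11, adjusted p = 0.000351) and Rapgef2, an exchange factor for Rap1 (log2 fold change of −0.99 ± 0.15, adjusted p = 0.000382). The adaptor Shc2 rose (log2 fold change of 0.66 ± 0.10, adjusted p = 0.000560). With the oligodendrocyte marker level as a covariate 1 of the activators rose. Of 14 inhibitors of Ras signalling 10 fell (71.4%) and 4 did not pass, with a median log2 fold change of −0.57. With the covariate 6 of them fell, and without ibudilast rat 4 there was 1 that rose. Rasa1 and Nf1, GTPase-activating proteins that switch Ras off, fell (log2 fold change of −0.85 ± 0.09, adjusted p = 7.12e-05, and log2 fold change of −0.68 ± 0.10, adjusted p = 0.000409). Spred1 and Spred2, inhibitors of Raf activation, fell as well (log2 fold change of −1.24 ± 0.15, adjusted p = 0.000137, and log2 fold change of −0.98 ± 0.15, adjusted p = 0.000429). Araf, a Raf kinase, fell (log2 fold change of −0.31 ± 0.07, adjusted p = 0.00325), and Mos had too few counts to test.

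Of 20 genes of scaffolds and adaptors of the cascades 6 rose (30%), 5 fell (25%) and 9 did not pass, shares near the 24.3% and 22.8% of all genes tested. With the oligodendrocyte covariate 2 rose and 3 fell. Lamtor1, an anchor of MEK1 scaffolding on late endosomes, rose (log2 fold change of 0.40 ± 0.06, adjusted p = 0.000628). The JNK scaffold gene Sh3rf1 (POSH) fell (log2 fold change of −1.09 ± 0.18, adjusted p = 0.000801), as did the JNK scaffold gene Spag9 (log2 fold change of −0.48 ± 0.09, adjusted p = 0.00180) and Tab2, an adaptor of TAK1 (log2 fold change of −0.42 ± 0.07, adjusted p = 0.000963). A list of phosphatase-family genes outside the DUSP symbols was not limited to phosphatases of MAP kinases. It also held Ssh2, Ssh3, Epm2a, Rngtt, Styx and Styxl1. Of its 14 genes tested, 4 rose (28.6%) and 8 fell (57.1%), with a median log2 fold change of −0.39. Those that rose numbered 2 without untreated rat 1, without untreated rat 2 and with the oligodendrocyte covariate, under which 5 fell. They also numbered 2 without untreated rat 3 and ibudilast rat 4. Ptpn5 (STEP), a neuronal phosphatase of ERK and p38, had 213 ± 24.2 CPM in ibudilast rats and 125 ± 15.6 CPM in untreated rats and rose (log2 fold change of 0.77 ± 0.11, adjusted p = 0.000281). Ppm1a and Ppm1b, which dephosphorylate stress-activated kinases, fell (log2 fold change of −0.49 ± 0.06, adjusted p = 0.000195, and log2 fold change of −0.62 ± 0.06, adjusted p = 4.19e-05). Ssh3, a slingshot-family phosphatase, rose (log2 fold change of 1.498 ± 0.14, adjusted p = 3.09e-05).

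Downstream of the MAP kinases, 4 of 11 kinase genes rose (36.4%) and 3 fell (27.3%), against 24.3% and 22.8% of all genes tested. The count that rose was 1 without untreated rat 2, and 2 without any 1 of ibudilast rats 1 and 4 and untreated rats 1, 4 and 5 and when genes of low counts were not filtered. Rps6ka3 (RSK2) and Rps6ka6 (RSK4), kinases activated by ERK, and Rps6ka5 (MSK1), activated by ERK and p38, fell (log2 fold change of −0.79 ± 0.10, adjusted p = 0.000195, log2 fold change of −0.70 ± 0.16, adjusted p = 0.00464, and log2 fold change of −0.42 ± 0.07, adjusted p = 0.000617). With the oligodendrocyte covariate Rps6ka6 did not pass (log2 fold change −0.71 with adjusted p = 0.0557). Rps6ka1 (RSK1) rose (log2 fold change of 0.50 ± 0.14, adjusted p = 0.0143), but did not pass with the oligodendrocyte covariate (0.38 with adjusted p = 0.243) or without untreated rat 2 (0.43 with adjusted p = 0.0507). Of 17 transcription factors that MAP kinases phosphorylate, 1 rose (5.88%) and 9 fell (52.9%), with a median log2 fold change of −0.48. With the oligodendrocyte covariate 5 of them fell. Mef2a and Mef2d, targets of p38 and ERK5, fell (log2 fold change of −1.22 ± 0.13, adjusted p = 5.76e-05, and log2 fold change of −0.97 ± 0.11, adjusted p = 9.02e-05). Atf2 and Jun, targets of JNK, fell too (log2 fold change of −1.15 ± 0.12, adjusted p = 6.01e-05, and log2 fold change of −0.96 ± 0.13, adjusted p = 0.000258).

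Of 22 transcripts known to be induced by ERK signalling, 1 rose (4.55%), 8 fell (36.4%) and 13 did not pass, with a median log2 fold change of −0.46 against 0.02 for all genes tested. With the oligodendrocyte covariate 4 of them fell. Egr1 had 31.1 ± 10.96 CPM in ibudilast rats and 75.1 ± 19.8 CPM in untreated rats, and fell (log2 fold change of −1.27 ± 0.24, adjusted p = 0.00160). Egr3 had 13.5 ± 5.21 CPM in ibudilast rats and 38.8 ± 4.39 CPM in untreated rats, and fell (log2 fold change of −1.52 ± 0.28, adjusted p = 0.00125). Spred1, counted also among the Ras inhibitors, fell, and the ETS factor Etv4 rose (log2 fold change of 1.084 ± 0.18, adjusted p = 0.000853). These lists share some genes, so their counts are not independent of each other. All values are transcript levels, and the phosphorylation of the kinases was not measured.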

How the data were processed

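Left hippocampal RNA of 5 ibudilast-treated and 5 untreated rats was sequenced in 1 stranded mRNA library per rat, and groups were taken from the sample titles and treatment labels. Per the submitters' processing notes, the rn6 build, RSEM 1.2.15, Bowtie2 2.1.0, bcl2fastq and edgeR were used. The annotation, the role of each tool and whether counting used strand are not given in the sources used here. The deposited table holds estimated counts per gene, which the authors did not normalize, and 12% of the values are not whole. A second deposited table holds a normalized signal, the authors' counts divided by TMM-scaled library sizes, and served as an alternative only. Whole reads were recovered from it, with 100% of values whole within 0.01.

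Estimated counts were rounded and tested with edgeR 4.0.16 (limma 3.58.1, R 4.3.3): robust quasi-likelihood F test, TMM factors, filterByExpr, Benjamini-Hochberg adjustment over 12355 genes, threshold 0.05. Errors of log2 fold changes are standard errors. Log2 ratios within a library used counts plus 0.5 and a two-sided exact permutation test of group means, adjusted over 9 ratios, of which 8 are given. Rats given the same number were not paired. Promoter windows and gene neighbours came from RefSeq (GRCr8), matched by symbol for 52 and 60 of the 62 genes. Alternatives were DESeq2 1.42.0, RLE and upper-quartile factors, library totals alone, limma-voom, limma-trend, other low-count filters, a replicate block, an oligodendrocyte marker covariate, 5 counts added in the ratios, and leaving out rats.

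Values for each rat are given for Mapk3, Map2k1, Map2k2, Mapk8, Mapk9, Mapk10, Mapk14, Dusp1 and Dusp6 and for the 4 largest rises and 4 largest falls of each tier among genes that passed. In each list of other genes, up to 4 passing genes were named by smallest p. Values by rat of Mapk13 and Dusp4, and the genes that changed their call without 1 rat, were chosen after their values were seen. Values of some genes counted here are not reported here. The genes and lists were chosen with earlier results of these data known. Tests were checked on simulated counts, where far fewer genes changed than were called in these data. That check does not give error rates for these data. No 2 libraries of a group agreed within sampling noise (lowest chi-square per gene 11.5). Of the table's rows, 25 carry a date in place of a symbol, 2 of them duplicated, and these stayed in the tests.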

Additional observations from a re-analysis of the deposited data

Results flagged for a closer look

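Within a group, 1 rat stood far from the other 4 in 15 of 132 sets of 5 values (11.4%), judged by Dixon's ratio of the gap to the range (critical value 0.71). Chance gives about 1 in 20. Of the 15, 4 were in ibudilast rat 4, 7 in untreated rat 3, 2 in ibudilast rat 1 and 2 in untreated rat 2.

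Untreated rat 3 was lowest of its group for Map2k1, at 269 CPM. It was highest for Mapk3 at 369 CPM, Mapk11 at 19.9 CPM, Map3k10 at 557 CPM, Map3k8 at 2.68 CPM and Map4k1 at 5.81 CPM. Its log2 ratio of Map2k2 to Map2k1 was also the highest of the untreated rats, at −1.18.

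Ibudilast rat 4 was lowest of its group for Map3k10, at 280.3 CPM. It was highest for Mapk12 at 32.7 CPM, Map4k2 at 67.1 CPM and Map3k1 at 10.0 CPM. Without this rat the calls of Map3k1, Map4k2 and Mapk12 were kept, and Map3k10 did not pass with or without it.

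Ibudilast rat 1 was highest for Mapk13 at 5.64 CPM and Mapk4 at 107 CPM. Untreated rat 2 was highest for Mapk13 at 3.53 CPM and lowest for Mapk8 at 72.0 CPM.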

How the results depend on the processing

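Of the 30 genes called, 17 kept their call in all 22 other settings, among them Dusp6, Dusp8, Dusp11, Map2k1, Map2k2, Map2k3, Map2k4, Map3k5, Map3k12, Map3k14, Map4k2, Map4k3, Map4k5, Mapk7, Mapk9 and Mapk11. In none of these settings did a called gene change sign. RLE and upper-quartile factors, DESeq2, limma-voom, limma-trend and both other low-count filters kept all 30 calls, and library totals alone lost Dusp19 and Mapk6. The median log2 fold change of all genes stayed between −0.02 and 0.09 over the settings.

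With the oligodendrocyte marker level as a covariate, genes changed numbered 3733 over all genes, against 5817, and 9 of the cascade and DUSP genes rose. MAP3K genes that rose numbered 3 and that fell 1, MAPK genes that rose 2 and DUSP genes that rose 1. The calls of Dusp7, Dusp12, Dusp15, Map2k5, Map3k1, Map3k6, Map3k11, Mapk10, Mapk12 and Mapk15 were lost, and the cause was not tested. The log2 fold change of Mapk11 was 2.17 there, against 1.52. DUSP genes that rose numbered 5 with library totals alone, with upper-quartile factors and without untreated rat 3 and ibudilast rat 4, a choice made after seeing the data. MAP4K genes that rose numbered 2 without those 2 rats and without the 4 rats that stood apart by marker genes (ibudilast rats 1 and 4 and untreated rats 2 and 3), and 1 to 2 with each rat left out in turn.

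Rats with the same number did not deviate together (correlations −0.33 to 0.42, and 1 of 5 correlated best with its own number), so the numbers do not pair them. With a replicate block 4726 genes changed, 25 of the 30 calls were kept, MAP3K genes that rose numbered 3, and Dusp12, Dusp19, Map3k3, Map3k6 and Mapk10 did not pass. There 2 of the 11 downstream kinases and 2 of the 14 other phosphatases rose, against 4 of each.

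Genes that changed sign had not passed the test. With the oligodendrocyte covariate the log2 fold changes were 0.26 for Dusp1, 0.090 for Dusp9, −0.23 for Map2k7, 0.35 for Map3k8, 0.38 for Map3k9, 0.32 for Mapk3 and 0.078 for Mapk4. Without the 4 rats that stood apart they were 0.18 for Dusp9, −0.13 for Map2k7, 0.28 for Map3k9 and 0.11 for Mapk3. Without untreated rat 3 and ibudilast rat 4 they were 0.025 for Dusp9, −0.020 for Map2k7, 0.30 for Map3k9 and 0.11 for Mapk3. With library totals alone Dusp16 was at 8.4e-05 and Map3k9 at 0.031. Map3k9 was at 0.047 under limma-voom, 0.020 with limma-trend and 0.029 with the replicate block. Map2k7 was at −0.0094 with RLE factors, −0.016 with DESeq2, −0.0053 with limma-trend and −0.019 with no low-count filter.

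With each rat left out in turn, log2 fold changes ranged from −0.42 to 0.031 for Dusp1, −0.22 to 0.025 for Dusp16, −0.27 to 0.15 for Dusp9, −0.065 to 0.073 for Map2k7, −0.23 to 0.0052 for Map3k2, −0.34 to 0.082 for Map3k8, −0.22 to 0.26 for Map3k9, −0.19 to 0.022 for Mapk3 and −0.33 to 0.031 for Mapk4. The Mapk10 to Mapk8 log2 ratio differed by −0.51 to −0.32 and Dusp1 to Dusp6 by 0.51 to 1.02 (0.83 without untreated rat 3 and ibudilast rat 4). Without 4 rats, 3 against 3 remain, where an exact permutation p cannot go below 0.1, so those ratios are values with no test.

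P-values measure the spread between these rats. Treatment, storage and any shared handling of a group cannot be told apart, and precision is low for transcripts of few counts, such as Map3k6, Map3k8 and Mapk13.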

Other observations

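Kinases of the MAP3K and MAP4K type whose symbols lie outside the cascade's naming scheme were counted as well. Of 14 tested, 2 rose (14.3%), 8 fell (57.1%) and 4 did not pass, against 24.3% and 22.8% of all genes tested, with a median log2 fold change of −0.36 against 0.02 for all genes tested, and Nrk had too few counts to test. Stk24 (MST3), a germinal centre kinase family member, had 16.0 ± 1.42 CPM in ibudilast rats and 28.1 ± 2.62 CPM in untreated rats (SD, n = 5 each). It fell (log2 fold change of −0.81 ± 0.09, adjusted p = 7.79e-05). Taok1 and Taok3, TAO kinases that act as MAP3Ks for p38 and JNK, fell (log2 fold change of −0.90 ± 0.12, adjusted p = 0.000240, and log2 fold change of −0.42 ± 0.08, adjusted p = 0.00112). Pak2, a p21-activated kinase that phosphorylates MEK1, had 21.2 ± 3.79 CPM in ibudilast rats and 39.5 ± 1.91 CPM in untreated rats and fell (log2 fold change of −0.90 ± 0.11, adjusted p = 0.000137). With the oligodendrocyte marker level as a covariate 1 rose and 5 fell. The count that rose was also 1 without any 1 of ibudilast rats 2, 3 and 5 and untreated rats 2, 3 and 4.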
